A study of Rattus norvegicus with 8 samples.

Results

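DNA repair genes encode the enzymes that find, cut out and reseal damaged DNA. The genes described here were 46 listed repair genes, of which 40 had a probe set with their symbol alone on the array, out of 10411 genes named in the same way. Each gene was read on its brightest probe set, the one with the highest mean log2 signal over all 8 arrays. The list was drawn up by function, with earlier results of these data known. The other 6 listed genes (Xpa, Ercc5, Atm, Atr, Msh3 and Msh6) were not analysed here.

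Primary hepatocytes, the parenchymal cells of the liver, came from 4 rats and were kept in culture overnight. From each rat, one culture was given 4 µM of the salt cadmium chloride for 3 h and another culture medium alone. This gave 4 control and 4 cadmium samples, 1 of each per rat, and each was hybridized to 1 rat oligonucleotide array (Affymetrix RAE230A). The labels give no strain, sex or age of the rats. Both groups share the enzymatic isolation, the collagen-coated dishes and an overnight step in medium without albumin. The study asked how gene expression responds to little cadmium given briefly.

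Cells remove small base lesions by base excision: a glycosylase releases the base, an endonuclease nicks the strand, and a polymerase and a ligase fill and seal it. Bulky lesions are opened by the TFIIH helicases and cut out by nucleotide excision. Broken ends are rejoined by end joining, which works in resting cells, or by homologous recombination, which needs a sister copy of the DNA. Cadmium is known to inhibit several repair proteins directly, an effect on the proteins that transcript levels do not show. Hepatocytes rarely divide, and the liver is known for high levels of the repair protein MGMT.

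Known cadmium-induced genes were far higher in the arrays labelled cadmium. Hspa1a, an inducible chaperone, had signals of 319.7 to 531.0 in controls and of 20830 to 27133 after cadmium, and Hmox1, which degrades haem, 475.3 to 930.4 and 18492 to 21613. Of the hepatocyte markers, 9 of 9 on the array lay above the filter for dim probe sets (a mean signal of 118), against 0 of 4 endothelial, 1 of 4 cholangiocyte, 2 of 8 stellate cell, 3 of 7 Kupffer cell or leukocyte and 3 of 11 dividing cell markers. No tested marker of these lists passed the test between the groups. Summed signals of the dividing cell markers overlapped between control (1206 to 1379) and cadmium (1172 to 1436), and of that list Mki67, Top2a, Cdk1 and Ccnb1 were below the filter. The array median was 191.7 to 197.0 in controls and 179.7 to 186.1 after cadmium (exact two-sided permutation p = 0.0286, the smallest that 70 assignments allow). That test did not use the pairing by rat. The arrays thus differ in median, though their means trimmed by 2% at each end were all 500.1 to 500.2. Counts after median centring stand beside several of the main ones. The median log2 change over all 9519 tested probe sets was -0.06, and 61.4% of them had a change below 0. In bulk cultures, fewer cells of a type and less RNA per cell cannot be told apart. Control arrays ran on 1 module of the fluidics station and cadmium arrays on the other, so module and group cannot be told apart.

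After 3 h of cadmium, 1 of the 36 tested genes of the list passed the test as lower and none as higher. Lig4, the DNA ligase that seals broken ends in end joining, fell to 60.4% of its control level on its brightest probe set. A dimmer probe set fell to 45.2%, and it was tested only through its control level, since all 4 of its cadmium signals lay under the filter for dim probe sets. None of the other 35 tested repair genes passed, though Lig3, the ligase of base excision, came close. Of the 40 genes, 36 passed the filter on dim probe sets. The 1 lower gene made up 2.78% of them, against 2.29% of all tested probe sets that were lower, and the 0 higher genes stand against 2.86% (limma with the rat as a block, adjusted p under 0.05; 5.15% of probe sets in either direction). These shares lie near the background, so the count alone does not set the repair genes apart.

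At an unadjusted p under 0.05, 9 of the 36 genes had a lower signal after cadmium (25.0%, against 13.0% of all tested probe sets) and 0 a higher one (against 7.42%). Without the rat block, limma gave 7 lower and 0 higher at that level, against 992 lower and 574 higher of all 9519 tested probe sets. After adjustment it again gave 1 lower and 0 higher (against 1.43% and 2.1% of all tested probe sets). The log2 change was below 0 for 29 of 36 genes (80.6%, against 61.4% of all tested probe sets). The median of the 36 genes was -0.17, against -0.06. The signal was lower in 4 of 4 rats for 8 genes (22.2%, against 19.7% of all tested probe sets), and 5 genes had cadmium signals all below the control signals (13.9%, against 7.22%). None had them all above (against 4.33%). Centring each array on its median brought the genes below 0 to 24 of 36 (66.7%, against 46.6% of probe sets), their median to -0.09, and those with a lower signal at an unadjusted p under 0.05 to 4 (11.1%, against 7.47%). Over the rats, the median change of the 36 genes was -0.08, -0.15, -0.13 and -0.19 in rats 1 to 4, against -0.06, -0.06, -0.05 and -0.07 over all tested probe sets. It was -0.17 within chip lot 1 (rats 3 and 4) and -0.12 within lot 2 (rats 1 and 2). The members were chosen with these results known, and no test of the whole list was made.

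**Figure D1:**
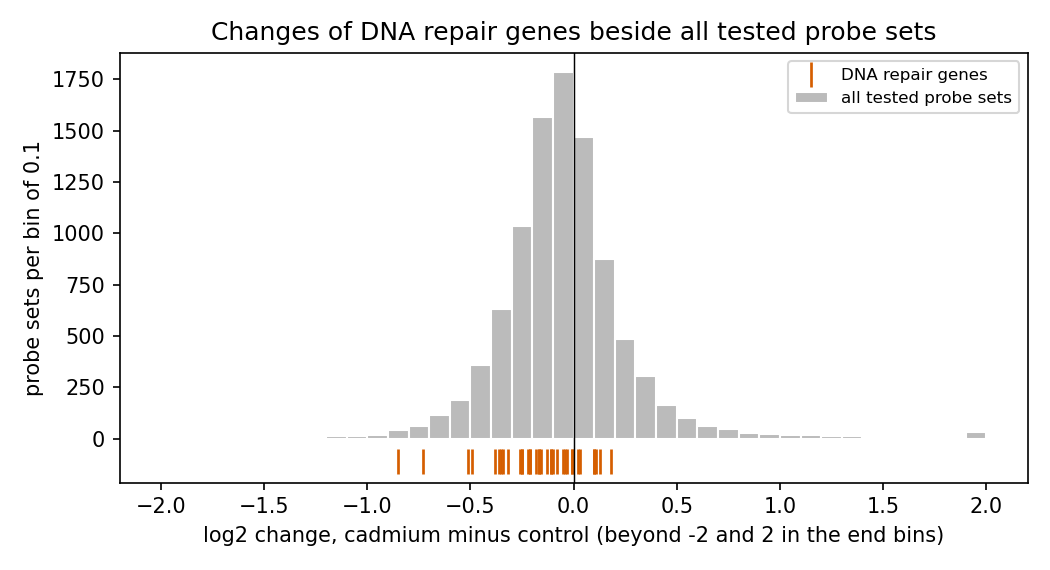
Histogram of the log2 change (cadmium minus control) of all 9519 tested probe sets, with a tick under it for each of the 36 repair genes on its brightest probe set. The ticks run from -0.85 (Ercc2) to 0.18 (Xrcc4), and 29 of 36 lie left of 0, against 61.4% of all tested probe sets.

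**Figure D2:**
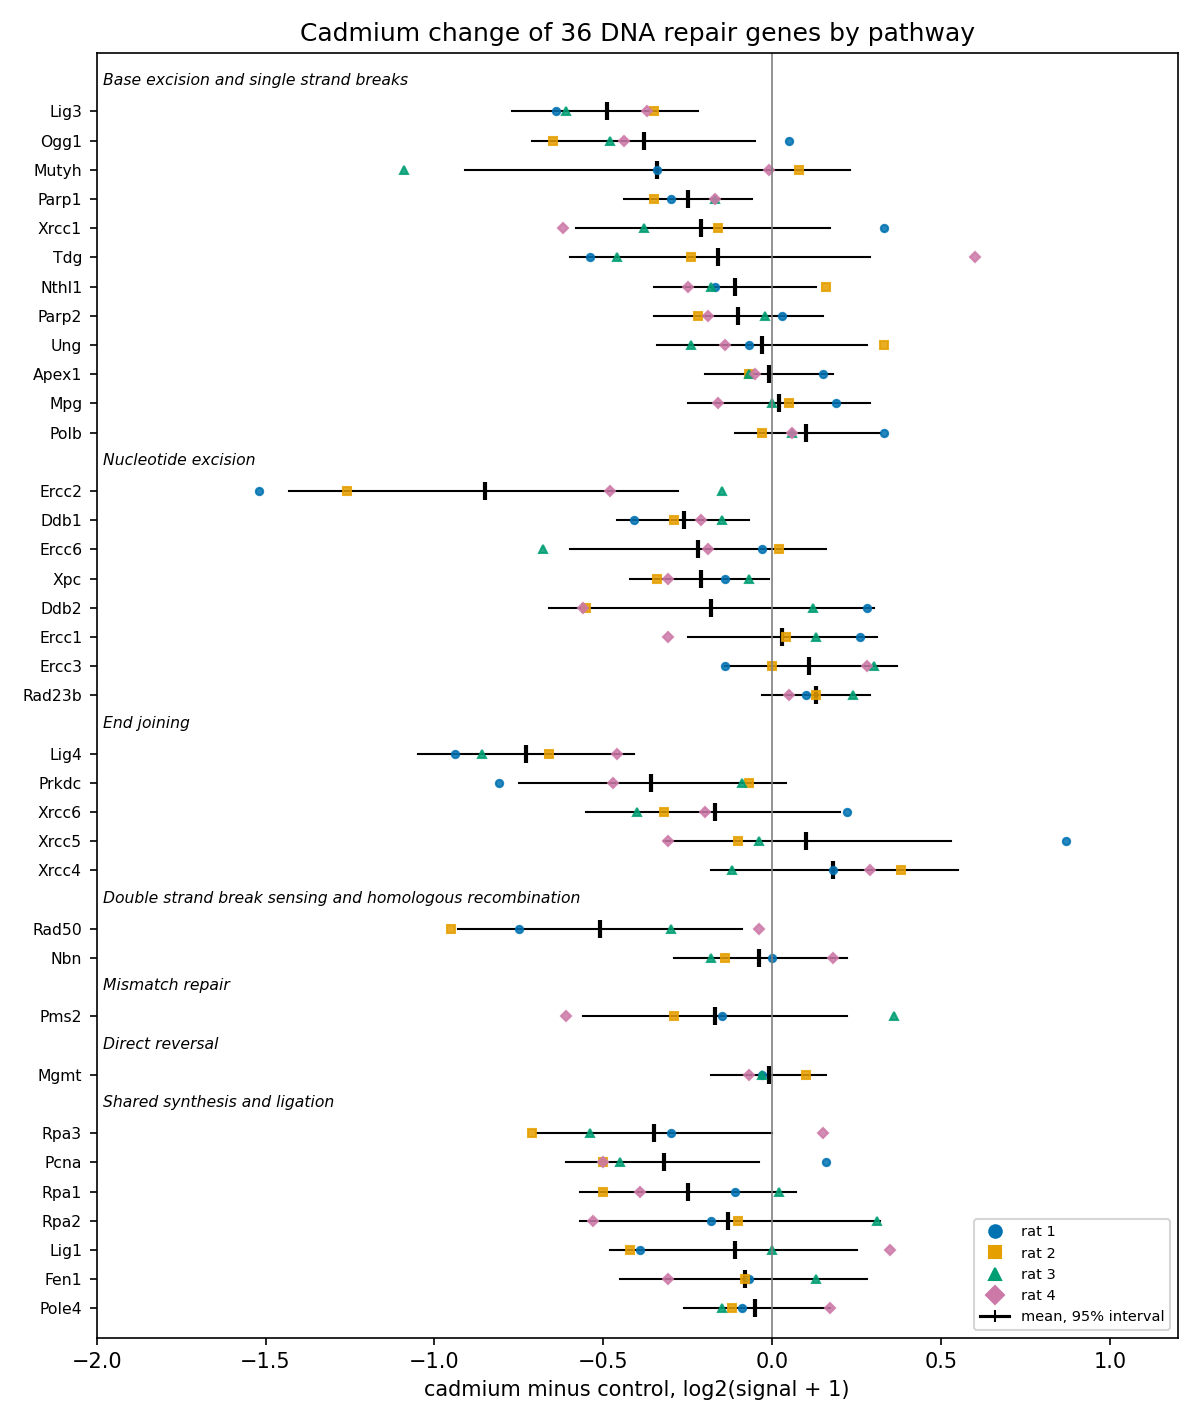
Log2 change of each of the 36 tested repair genes by pathway, with 1 coloured point per rat, the mean as a black bar and its 95% interval from limma as a line. In Lig4, Lig3, Rad50, Ercc2, Ddb1, Xpc, Parp1 and Prkdc all 4 points lie left of 0, and in Rad23b all 4 lie right of it.

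End joining holds the listed gene that passed as lower. Lig4 has a pair of probe sets on the array, and both are given. On the brighter one (1390561_at), signals in rats 1 to 4 were 321.8, 401.7, 367.3 and 331.7 in controls and 167.0, 254.5, 202.6 and 241.1 after cadmium. Every control culture was above every cadmium culture, and each rat was lower after cadmium. The mean went from 356 ± 36.4 to 216 ± 39.5 (SD, n = 4 each), and the log2 change was -0.73 with an SE of 0.14 (adjusted p = 0.0234 by limma). On the dimmer one (1383561_at), controls read 175.8, 214.2, 177.7 and 184.1 and cadmium cultures 70.5, 116.5, 66.6 and 91.7. The groups again did not overlap, and the mean went from 188 ± 17.9 to 86.3 ± 22.9, a log2 change of -1.14 ± 0.21 (limma adjusted p = 0.0195). All 4 cadmium signals of that probe set lay under the filter signal of 118, so it passed the filter through its control level. Rat 4 had the smallest change on the brighter probe set (-0.46) and rat 1 the largest (-0.94), and on the dimmer one rat 2 the smallest (-0.87) and rat 3 the largest (-1.40).

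The call of Lig4 was narrow. Without the filter its adjusted p was 0.0568 and 0.0562 on the brighter and the dimmer probe set. It was 0.0999 and 0.0941 without rat 1, 0.0984 and 0.0796 without rat 2, and 0.109 and 0.087 without rat 3, with log2 changes of -0.66 to -0.75 and of -1.06 to -1.24. With the chip lot as a block it was 0.0452 and 0.0256. Within lot 1 the log2 changes were -0.66 and -1.20 (limma adjusted p = 0.351 and 0.317), and within lot 2 -0.80 and -1.09 (0.0727 and 0.0957).

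**Figure D3:**
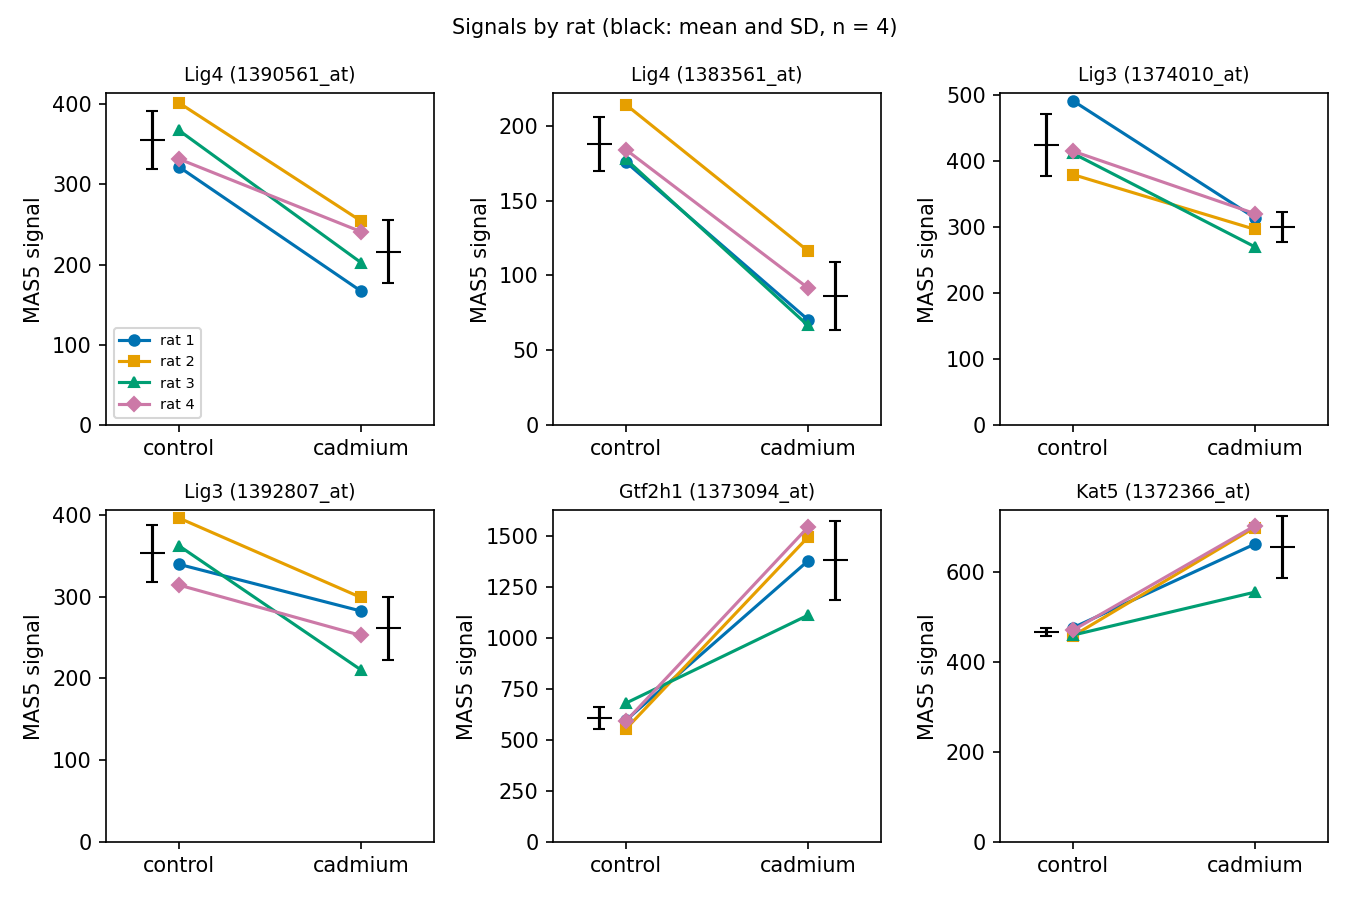
MAS5 signals in control and cadmium cultures, joined by rat, for both probe sets of Lig4 and of Lig3 and for Gtf2h1 and Kat5, with the mean and SD (n = 4) in black. All lines of Lig4 and Lig3 go down and all lines of Gtf2h1 and Kat5 go up, and in none of the 6 panels do the groups overlap.

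The RefSeq promoter windows (assembly GRCr8, from 250 bases before to 50 after the start) are printed for Lig4 and Gtf2h1. Lig4 is the listed repair gene that passed as lower, and Gtf2h1 is a repair gene of a wider list that rose and is described below. Both lie on the + strand, at chr16:86220192-86220491 for Lig4 and chr1:106457442-106457741 for Gtf2h1. Capitals mark matches on either strand to any of these motifs: the GC box GGGCGG, the CRE core TGACG, the E box CACGTG, the heat shock element core GAANNTTC, the antioxidant response element core TGACNNNGC, and the metal response element cores TGCACNC and TGCGCNC.
Lig4: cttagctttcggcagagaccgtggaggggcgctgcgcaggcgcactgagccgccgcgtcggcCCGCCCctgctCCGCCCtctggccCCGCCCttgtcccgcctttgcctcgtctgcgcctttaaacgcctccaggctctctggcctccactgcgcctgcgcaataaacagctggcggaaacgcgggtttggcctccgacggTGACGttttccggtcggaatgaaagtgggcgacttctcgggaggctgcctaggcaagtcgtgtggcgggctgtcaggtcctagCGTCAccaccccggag
Gtf2h1: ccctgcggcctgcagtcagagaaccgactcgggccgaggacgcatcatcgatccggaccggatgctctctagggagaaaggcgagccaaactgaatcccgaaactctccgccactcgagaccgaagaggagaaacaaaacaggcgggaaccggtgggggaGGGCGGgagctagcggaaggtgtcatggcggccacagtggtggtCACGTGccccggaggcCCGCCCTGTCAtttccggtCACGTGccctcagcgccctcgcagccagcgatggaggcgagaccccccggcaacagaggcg
The window of Lig4 held 3 GC boxes, present in 33.1% of all 33469 promoter windows, and 2 CRE cores, present in 21.2%. It held 0 matches to the other motifs. The window of Gtf2h1 held 2 GC boxes, 2 E boxes (in 6.42% of windows) and 1 antioxidant response element core (in 12.1%), the last overlapping a GC box. Neither window matched the heat shock core (in 8.59% of windows) or a metal response core (in 12.2% and 14.1%). A match is only a run of letters and was not tested for binding.

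The other genes of end joining did not pass. Prkdc, the kinase that bridges the broken ends, had control signals of 270.0, 258.3, 243.3 and 243.8 and cadmium signals of 154.0, 245.8, 229.3 and 175.2. All 4 rats were lower, rats 1 and 4 most, while rat 2 after cadmium was above the controls of rats 3 and 4. Its log2 change was -0.36 ± 0.17 (limma adjusted p = 0.29). The Ku subunits that first bind a broken end moved less: Xrcc6 had a log2 change of -0.17 (95% interval -0.55 to 0.20) and Xrcc5 of 0.10 (-0.32 to 0.53), the latter with rat 1 at 0.87 and the other rats between -0.31 and -0.04. Xrcc4, the partner that holds LIG4 in place, had a log2 change of 0.18 (-0.18 to 0.55). None of these 3 genes passed.

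In base excision, 10 of 12 genes had a log2 change below 0 (83.3%, against 61.4% of all tested probe sets), and 8 of 12 after median centring (66.7%, against 46.6%). At an unadjusted p under 0.05, 3 of 12 had a lower signal (25.0%, against 13.0%), and none passed after adjustment. After median centring, 1 of 12 had a lower signal at that level (8.33%, against 7.47%). The group's median was -0.13. Lig3, whose product seals the nick together with XRCC1, was read on a pair of probe sets. The brighter (1374010_at) gave 491.6, 379.7, 411.9 and 415.2 in controls and 314.2, 296.7, 270.2 and 320.5 after cadmium. The groups did not overlap, with means of 425 ± 47.5 and 300.4 ± 22.5, a log2 change of -0.49 ± 0.12 and a limma adjusted p of 0.0545 (0.0605 without the rat block). The dimmer (1392807_at) gave 339.7, 396.3, 362.3 and 314.3 in controls against 282.6, 299.2, 210.6 and 252.7, again without overlap. Its log2 change was -0.44 ± 0.14 (limma adjusted p = 0.116). Neither passed, and the brighter passed with a stricter filter of 60% (adjusted p = 0.047).

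Parp1, the sensor that marks strand breaks with poly(ADP-ribose), read 1590, 1766, 1735 and 1655 in controls and 1294, 1384, 1538 and 1469 after cadmium. All cadmium cultures were below all controls, and the log2 change was small at -0.25 ± 0.08 (limma adjusted p = 0.141). Its relative Parp2 had a log2 change of -0.10 (95% interval -0.35 to 0.15). Ogg1, the glycosylase for oxidised guanine, went from 395 ± 46.7 to 302 ± 26.8, lower in 3 of 4 rats, with rat 1 at 0.05 and the others at -0.65, -0.48 and -0.44 (limma adjusted p = 0.185). Mutyh, which removes adenine opposite oxidised guanine, had a log2 change of -0.34, of which rat 3 gave -1.09 (limma adjusted p = 0.49).

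None of the other base excision genes passed. Among the glycosylases, the log2 change was -0.16 for Tdg, with rat 4 at 0.60 and the others between -0.54 and -0.24. It was -0.11 for Nthl1, which acts on oxidised pyrimidines, -0.03 for Ung, which acts on uracil, and 0.02 for Mpg, which acts on alkylated bases. Apex1, the endonuclease that nicks the strand, read 1680 ± 63.7 and 1673 ± 160 on its brightest probe set, a log2 change of -0.01 (95% interval -0.20 to 0.18). Xrcc1, the scaffold protein, had a log2 change of -0.21, with rat 1 at 0.33 and rat 4 at -0.62. Polb, the gap-filling polymerase, had 0.10 (-0.11 to 0.32) on its brighter probe set and -0.51 (-0.96 to -0.05) on the dimmer one, which was lower in 4 of 4 rats without overlap (limma adjusted p = 0.203). Its probe sets thus disagreed in sign, as did those of Nthl1 (-0.11 and 0.17), Apex1 (-0.01 and 0.08) and Ddb2 (-0.18 and 0.48, the latter below the filter). The probe sets that differ in sign were listed after their values were seen.

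In nucleotide excision, 5 of 8 genes had a log2 change below 0 (62.5%, near the 61.4% of all tested probe sets). At an unadjusted p under 0.05, 3 of 8 had a lower signal (37.5%, against 13.0%), and none passed after adjustment. After median centring it was 1 of 8 (12.5%, against 7.47%), and 5 of 8 had a log2 change below 0 (62.5%, against 46.6%). Ercc2, the XPD helicase of TFIIH, had the largest change among the brightest probe sets of the 36 tested genes and did not pass. Its control signals were 207.1, 244.7, 236.3 and 219.7, and its cadmium signals were 71.4, 101.6, 213.3 and 157.3. Rats 1 and 2 read far lower after cadmium, while rat 3 after cadmium was above the control of rat 1, so the groups overlapped. The mean went from 227 ± 16.8 to 136 ± 62.7, a log2 change of -0.85 ± 0.25 (limma adjusted p = 0.0981, 0.173 without the rat block). Rats 1 and 2 ran on one chip lot, with a log2 change of -1.39 (limma adjusted p = 0.0323), and rats 3 and 4 on the other, with -0.31 (0.66). In rats 1 and 2 both cadmium signals lay under the filter signal of 118, and both control signals lay above it. The difference between the lots had an unadjusted p of 0.0203 and an adjusted p of 0.896.

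Ddb1, which with DDB2 recognises ultraviolet lesions, read 1947, 1697, 1720 and 1925 in controls and 1465, 1392, 1546 and 1665 after cadmium. The groups did not overlap, and the log2 change was -0.26 ± 0.09 (limma adjusted p = 0.125). Another probe set of Ddb1 gave -0.26 ± 0.09 (limma adjusted p = 0.157), and one below the filter gave -0.33 ± 0.32. Xpc, the damage sensor of nucleotide excision, read 1927, 1805, 1768 and 1237 in controls and 1752, 1425, 1682 and 999.9 after cadmium. Each rat was lower after cadmium, rat 4 read lowest in both groups and the groups overlapped, with a log2 change of -0.21 ± 0.09 (limma adjusted p = 0.22, 0.664 without the rat block).

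Rad23b, the partner that stabilises XPC, was the 1 tested gene of the list higher in 4 of 4 rats, against 9.91% of all tested probe sets. Its change was small, from 4165 ± 365 to 4557 ± 403, a log2 change of 0.13 ± 0.07 (limma adjusted p = 0.358). The incision subunit Ercc1 (0.03), the TFIIH helicase Ercc3 (0.11), the transcription-coupled repair factor Ercc6 (-0.22) and Ddb2 (-0.18) had limma adjusted p-values between 0.508 and 0.917.

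Of the genes that sense double-strand breaks and start recombination, 2 of 6 were bright enough to test. Rad50, the coiled-coil ATPase of the MRN complex, read 318.4, 284.7, 261.7 and 222.1 in controls and 189.0, 146.5, 211.8 and 215.5 after cadmium. The groups did not overlap, though rat 4 changed by only -0.04 and rat 2 by -0.95. The log2 change was -0.51 ± 0.18 (limma adjusted p = 0.163), with -0.85 within lot 2 and -0.17 within lot 1. Nbn, the MRN subunit that recruits the ATM kinase, read 593.8, 532.8, 562.8 and 360.5 in controls and 595.4, 482.4, 496.0 and 407.2 after cadmium. The groups overlapped throughout, and its log2 change was -0.04 ± 0.11 (limma adjusted p = 0.891; 0.04 after median centring). Mre11, the nuclease of the same complex, and the recombination genes Rad51c, Brca1 and Brca2 were below the filter. Their means lay between 70.6 and 89.5 in controls and between 70.2 and 115 after cadmium, and without the filter their limma adjusted p-values were 0.77 to 0.98. At such signals single rats differed by up to 1.50 on the log2 scale (Brca2, rat 2), and changes of these genes were not measurable with any precision.

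For mismatch repair, only Pms2, a subunit of the endonuclease that nicks the mismatched strand, was analysed. It read 336.9, 336.5, 245.2 and 343.4 in controls and 304.4, 274.4, 315.5 and 224.3 after cadmium. Rats 1, 2 and 4 were lower and rat 3 higher, and the log2 change was -0.17 ± 0.17 (limma adjusted p = 0.623). Mgmt, which takes alkyl groups off guanine in a single step, stood for direct reversal. Its control signals were 3130, 2365, 4138 and 3281 and its cadmium signals 3063, 2534, 4043 and 3117. Within each rat the pair lay close together, and the log2 change was -0.01 ± 0.07 (95% interval -0.18 to 0.16; limma adjusted p = 0.96; 0.07 after median centring).

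The genes of synthesis and ligation that repair shares with replication all had log2 changes below 0, between -0.35 and -0.05, and none passed. That is 7 of 7, against 61.4% of all tested probe sets, and 6 of 7 (85.7%) after median centring, against 46.6%. At an unadjusted p under 0.05, 1 of 7 had a lower signal (14.3%, against 13.0%), and 0 after median centring (against 7.47%). None was lower in 4 of 4 rats (against 19.7%), and none had cadmium signals all below the control signals (against 7.22%). Pcna, the sliding clamp, read 1668, 1915, 1379 and 1683 in controls and 1862, 1353, 1009 and 1190 after cadmium. Rats 2, 3 and 4 were lower and rat 1 higher, so the groups overlapped, and the log2 change was -0.32 ± 0.12 (limma adjusted p = 0.19). Rpa3, the small subunit of the protein that coats single-stranded DNA, read 576.9, 564.0, 408.2 and 325.5 in controls and 469.0, 344.5, 280.6 and 362.3 after cadmium. Rats 1 to 3 were lower and rat 4 higher, with a log2 change of -0.35 ± 0.15 (limma adjusted p = 0.248). Rpa1, the large subunit, had -0.25 ± 0.14 and Rpa2 -0.13 ± 0.19. The flap nuclease Fen1 (-0.08), the replication ligase Lig1 (-0.11) and Pole4, a small subunit of DNA polymerase epsilon (-0.05), had limma adjusted p-values between 0.746 and 0.826.

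Differences between the rats, apart from cadmium, were tested in the same fit. The moderated F test of limma over the rat terms passed for 1 of 36 genes, Mgmt (F = 16.4, adjusted p = 0.0416), which is 2.78%, near the 1.75% of all tested probe sets. At an unadjusted p under 0.05 it was 8 of 36 (22.2%, against 15.7%). Rat 3 had the highest Mgmt signal and rat 2 the lowest, in both groups. Xpc (F = 13.3, adjusted p = 0.0634) and Rpa1 (F = 8.29, adjusted p = 0.137) came next and did not pass. Rpa1 read 411.1, 350.2, 334.3 and 234.7 in controls and 380.2, 247.2, 338.3 and 178.4 after cadmium, and rat 4 was lowest in both. The rat also marks the scan day, since both arrays of a rat were scanned on the same day, so animal and scan day cannot be told apart. Rats 1 and 2 ran on chip lot 2 and rats 3 and 4 on lot 1, so a difference between rats can also hold one between lots. For Mgmt, both rats of lot 1 read above both rats of lot 2 in each group. The cadmium effect differed between the chip lots in 0 of 36 genes by limma's interaction term (smallest adjusted p = 0.896; 1 gene, Ercc2, at an unadjusted p under 0.05), and in 0.0% of all tested probe sets (4.27% at an unadjusted p under 0.05).

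**Figure D4:**
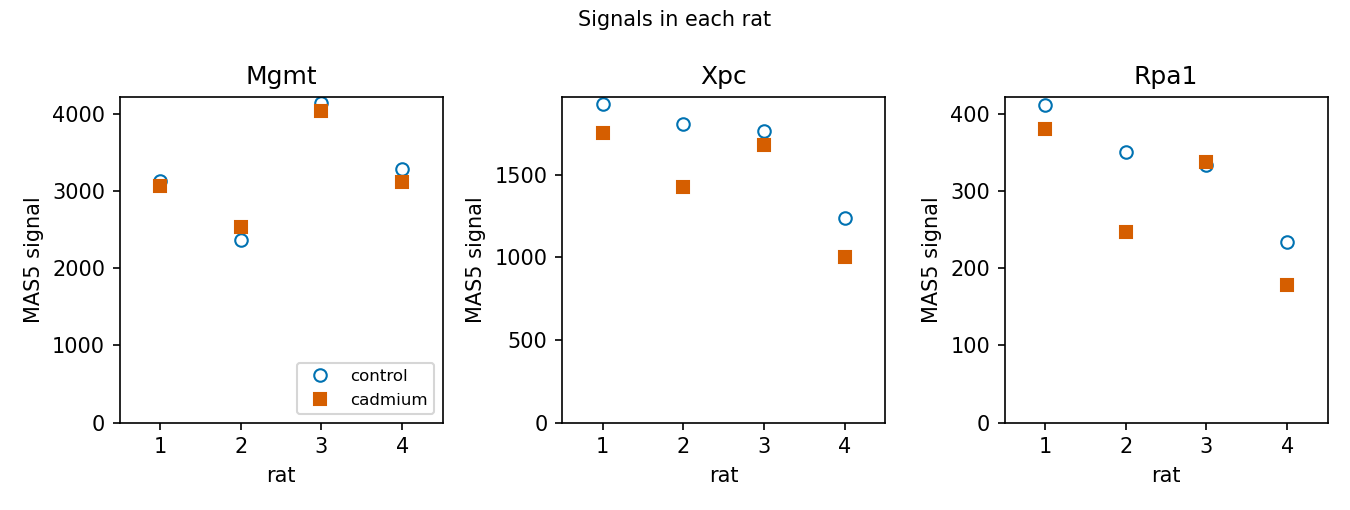
MAS5 signals of Mgmt, Xpc and Rpa1 in each of the 4 rats, with open circles for control and filled squares for cadmium cultures. For Mgmt the 2 cultures of a rat lie close together and rat 3 stands above rat 2 in both groups.

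A wider list of 143 other repair and damage response genes gave 76 genes on the array, of which 63 were tested. By limma with the rat as a block 2 rose (3.17%, against 2.86% of all tested probe sets) and 0 fell, with 4 higher (6.35%, against 7.42%) and 4 lower (6.35%, against 13.0%) at an unadjusted p under 0.05. The median log2 change was -0.10. Gtf2h1, which encodes the p62 core subunit of TFIIH, read 597.2, 554.8, 681.2 and 592.9 in controls and 1378, 1495, 1112 and 1543 after cadmium. It was higher in 4 of 4 rats without overlap, with rat 3 showing the smallest rise. The mean went from 607 ± 53.3 to 1382 ± 193, a 2.26-fold rise and a log2 change of 1.18 ± 0.13 (limma adjusted p = 0.00134). The call of Gtf2h1 ended within chip lot 1 alone (log2 change 1.04, limma adjusted p = 0.127).

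Kat5, the TIP60 acetyltransferase that activates the ATM kinase, read 475.8, 457.6, 459.4 and 470.3 in controls and 661.6, 698.3, 554.8 and 702.0 after cadmium. The groups did not overlap, and the log2 change was 0.48 ± 0.11 (limma adjusted p = 0.0395). The call of Kat5 ended when any 1 rat was left out (limma adjusted p = 0.0573 to 0.167), with no filter (0.0653), with no variance trend (0.0731) and within either chip lot (0.431 and 0.0963).

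TFIIH was followed across its analysed subunits after the value of Gtf2h1 was seen. The subunit gene Gtf2h2 of the wider list was not among the genes analysed. Of 9 tested subunit genes, 1 rose and 0 fell (against 2.86% and 2.29% of all tested probe sets), and the 1 that rose is Gtf2h1 itself, so the count is a description. Beside Gtf2h1 (1.18), Ercc2 (-0.85) and Ercc3 (0.11), the core genes Gtf2h3, Gtf2h4 and Gtf2h5 had log2 changes of -0.14, -0.17 and -0.22. The genes of its kinase module were at -0.10 for Cdk7, 0.07 for the cyclin Ccnh and 0.25 for the assembly factor Mnat1, with limma adjusted p-values of 0.297 to 0.807 over these 6 genes. Ercc2 and Ercc3 did not pass either, and differences between subunit genes were not tested.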

How the data were processed

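RNA from 4 control and 4 cadmium cultures, 8 µg each, was labelled and hybridized to 1 array per culture, per the labels' protocols. The deposited table holds 1 linear signal intensity per probe set, made by the authors with MAS5, per the submitters' processing notes; its version and scaling target are not stated in what was used here. After trimming 2% of values at each end, every array had a mean of 500.1 to 500.2. Other deposited files hold array settings only, which gave the chip lots, scan days and modules.

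Signals were used as log2(signal + 1) without further normalization. Adding 1 shrinks changes of dim genes slightly. With 32 added instead, the log2 change of the dimmer Lig4 probe set was -0.91 in place of -1.14. After 57 control probe sets were dropped, the 40% with the lowest mean over all 8 arrays (below a signal of 118) were left out, leaving 9519. Symbols came from the platform annotation, updated by gene number to RefSeq (GRCr8). Cadmium was compared with control by limma 3.58.1 (R 4.3.3; lmFit, eBayes with a variance trend), two-sided, with the rat as a block and p-values adjusted by Benjamini-Hochberg across every probe set kept. The labels name the rat behind each sample, which pairs the samples. The 2 samples' deviations from the group means correlated at 0.35, 0.251, 0.475 and 0.196 in rats 1 to 4. Between different rats the values were -0.248 to -0.00828, and taking off the group means pushes these below 0. Both arrays of a rat also shared the scan day and chip lot, so these correlations do not show the animal alone. The number of arrays limits the precision. On simulated arrays of this comparison (9519 probe sets), 46% of changes of 0.5 on the log2 scale were recovered, 86% of changes of 1 and 100% of larger ones. There 50 probe sets were changed at each size, and 11 unchanged ones were called. The simulated noise was normal and independent between probe sets, so recovery on the real arrays can differ.

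The members, gene lists and alternatives were chosen with earlier results of these data known. Signals in all samples are given for genes past the threshold with or without the block, the 2 genes of each pathway with the smallest p (1 in small pathways), every Lig4 probe set, the 3 genes that differ most between rats, and any other probe set of these with the opposite sign. Of the wider list, genes past the threshold are named. Alternatives were no replicate block, the chip lot as a block, a pseudocount of 32, no filter or one of 60%, no variance trend, median centring or quantile normalization, averaging all probe sets of a gene, and each rat left out. Fits within chip lots were chosen after seeing the data.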

Additional observations from a re-analysis of the deposited data

Results flagged for a closer look

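Outliers were looked for among the 4 samples of each group, in 72 groups of values (36 genes, control and cadmium), where chance flags about 1 in 20. The 3 found are given as values. Pms2 read 245.2 in control replicate 3, against 336.5 to 343.4 in the other controls. Ddb2 read 183.4 in control replicate 2, against 171.3 to 172.5, a gap of few signal units in a very tight group. Fen1 read 154.5 in cadmium replicate 3, against 196.5 to 206.1 in the other cadmium cultures. None of these 3 genes passed the test between cadmium and control.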

How the results depend on the processing

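The count of listed repair genes higher after cadmium was 0 in every alternative run, and limma called at most 1 lower. That gene was Lig4 with no replicate block, with the chip lot as a block, with a pseudocount of 32, after quantile normalization or median centring, without a variance trend, on the mean of its probe sets and without rat 4. With a filter of 60%, which drops Lig4 (25 genes tested), it was Lig3. Within chip lot 2 it was Ercc2, whose cadmium signals in that lot lay under the filter signal of 118. The count of lower genes was 0 without the filter and within chip lot 1, and 0 to 1 with a rat left out. The change of the brighter Lig4 probe set was -0.73 without the filter, -0.66 within lot 1 and -0.80 within lot 2, each no longer past the threshold, and -0.82 to -0.66 with a rat left out. For the dimmer one these were -1.14, -1.20, -1.09 and -1.24 to -1.06. Other repair genes higher numbered 1 with any rat left out, with no variance trend and with no filter, 4 after median centring (with Alkbh3 and Rnf4 added), 0 within lot 1 and 1 within lot 2. Over all probe sets, the replicate block gave 272 higher and 218 lower, against 200 and 136 with no replicate block, and it changed no call of a named repair gene. Lower probe sets numbered 113 without the filter, 119 after median centring and 105 without a variance trend (156 higher). Within lots 1 and 2 there were 10 and 112 lower, and 77 higher within lot 1. With a rat left out, 121 to 309 were higher and 44 to 290 lower. Higher probe sets made up 55.5% of calls, 63.8% after quantile normalization and 75.5% after median centring. Mgmt changed sign after median centring (0.07), without rat 4 (0.01) and within lot 2 (0.03), and Nbn after quantile normalization (0.01), after median centring (0.04) and without rat 3 (0.01). With a rat left out, Mgmt ranged from -0.05 to 0.01 and Nbn from -0.11 to 0.01. The causes were not tested. Dim signals limit Mre11, Rad51c, Brca1 and Brca2.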

Other observations

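Abhd13, a gene of the alpha/beta hydrolase family, is the gene next to Lig4 on the side of its promoter in the RefSeq annotation of GRCr8, and was looked up after the value of Lig4 was seen. Its brighter probe set read 412.9, 332.3, 527.5 and 467.4 in controls and 329.2, 305.2, 293.5 and 330.8 after cadmium, lower in 4 of 4 rats without overlap. The log2 change was -0.45 ± 0.14 (limma adjusted p = 0.123). Its dimmer probe set had -0.17 ± 0.24, lower in 2 of 4 rats (limma adjusted p = 0.753). Neither passed, and whether the neighbours move together was not tested.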
